A study of Homo sapiens with 32 samples.

Results

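The 4 genes described here are the sestrins SESN1, SESN2 and SESN3 and the stress gene DDIT4, also called REDD1, all of which encode proteins that restrain the growth kinase complex mTORC1. They were taken by gene symbol, 1 array feature each, and all 4 were present among the 14884 genes measured. They were selected on their measured levels in resistant against naive cells, so their differences from naive cells are given as a description, without a test. Expression was measured on 32 whole-transcript GeneChip arrays of K-562, an established human chronic myeloid leukemia line of erythroid character that depends on the BCR-ABL1 kinase. Imatinib and nilotinib, both inhibitors of that kinase, had been raised stepwise to obtain resistant cells, with 2 lines (biological replicates) of each resistance. Low-imatinib lines resisted imatinib at 0.5 µM and high-imatinib lines at 2 µM. Nilotinib lines resisted nilotinib at 0.1 µM. Treatment-naive cells served as the comparison, in 2 sets whose titles carry the letters S and K. Each of these 8 sets had 4 technical arrays. The labels do not explain the letters and do not say whether a line is a clone, and the growth text, identical for all samples, describes medium without either drug, so the presence of drug at harvest is not clear.

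mTORC1 drives protein synthesis when amino acids and growth factor signals are sufficient. Growth factor signals reach it through AKT, the TSC complex and the small GTPase RHEB, and amino acid signals through the Rag GTPases, which the GATOR1 complex holds back and GATOR2 releases. SESN2 binds leucine and, without it, binds and inhibits GATOR2; SESN1 and SESN3 are its paralogs. DDIT4 acts on the other branch, where it promotes the activity of the TSC complex. In transcription, SESN1 is known as a target of p53 and of FOXO factors, SESN3 as a FOXO target, SESN2 as a target of p53, ATF4 and NRF2, and DDIT4 as a target of ATF4, of hypoxia-inducible factors and of the glucocorticoid receptor. These arrays measure RNA only, and no activity of mTORC1 was measured. In bulk RNA, fewer cells expressing a gene and less RNA per cell cannot be told apart.

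Values are intensities on what reads as a log2 scale, where a difference of 1 is a doubling. The number of lines and naive sets, 2 in each group, limits the precision, since the arrays of a set are technical. Within a set, pairs of arrays had a Pearson r of 0.952 to 0.991 over all genes. The main direction in which arrays of the same set differed, called the technical axis below, held 16.8% of that spread, and its mean scores were not level across groups (-2.13 to 21.2 in the resistant lines, against -25.1 and -20.8 in the naive sets). Of 14 K-562 markers 6 were measured, at percentiles from 71.9 to 96.7 of all genes, with GATA1 the highest. The fibroblast marker LUM lay at percentile 5.91 with DCN lower still, CD2 of lymphocytes at 47.5, and the epithelial marker EPCAM at 81.9. The monocyte markers CD14, CSF1R and LYZ lay at 23.3, 38.6 and 65.0.

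SESN3, on chromosome 11, had the largest difference of the 4 genes from naive cells. Its set means were 7.75 ± 0.25 and 8.03 ± 0.09 in low-imatinib lines 1 and 2, 6.92 ± 0.14 and 8.63 ± 0.08 in high-imatinib lines 1 and 2, and 8.20 ± 0.07 and 7.23 ± 0.20 in nilotinib lines 1 and 2, against 5.15 ± 0.28 and 5.13 ± 0.18 in naive S and K (SD over 4 technical arrays each). The lowest array of any resistant line read 6.78, and the highest naive array 5.57. No array of a resistant line therefore overlapped with a naive array. Over all 6 lines SESN3 was 2.65 ± 0.45 higher than in naive cells (6.29-fold on this scale, standard error from limma, n = 6 lines against 2 naive sets). The naive mean lay at percentile 11.3 of all genes, and without background values it was not shown to be above background, which limits how the fold can be read. By line the difference ran between 1.78 in high-imatinib line 1 and 3.49 in high-imatinib line 2, so the widest gap between lines lay within a single resistance.

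SESN1, on chromosome 6, differed in the same direction by a smaller amount. It stood at 7.96 ± 0.25 and 8.18 ± 0.07 in low-imatinib lines 1 and 2, 7.08 ± 0.14 and 7.94 ± 0.13 in high-imatinib lines 1 and 2, and 7.33 ± 0.13 and 7.64 ± 0.21 in nilotinib lines 1 and 2, against 6.56 ± 0.17 and 6.51 ± 0.30 in naive S and K. The lowest array of a resistant line, 6.95 in high-imatinib line 1, lay just above the highest naive array, 6.85 in naive K. The difference over all lines was 1.16 ± 0.22 (2.23-fold). By resistance it was 1.54 ± 0.27 for low imatinib, 0.98 ± 0.27 for high imatinib and 0.95 ± 0.27 for nilotinib. Each gene has a weight on the technical axis, positive where the gene rises along it and negative where it falls. By this signed weight SESN1 lay at percentile 95.9 of all genes. With that axis taken out the SESN1 difference over all lines was 0.71, with 0.38 in the nilotinib lines. The corresponding value for SESN3 was 2.32. By the same signed weight DDIT4 lay at percentile 92.3, SESN3 at 85.8 and SESN2 at 85.2. Across genes the axis correlated at 0.61 with the resistant-minus-naive difference, so its removal can also take out part of that difference.

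SESN2, on chromosome 1, did not follow its paralogs. Its set means were 7.67 ± 0.04 and 7.89 ± 0.10 in low-imatinib lines 1 and 2, 9.69 ± 0.10 and 8.44 ± 0.08 in high-imatinib lines 1 and 2, and 8.76 ± 0.12 and 8.47 ± 0.17 in nilotinib lines 1 and 2, against 9.27 ± 0.11 and 8.46 ± 0.34 in naive S and K. The low-imatinib lines were lowest and high-imatinib line 1 highest, while the other 3 lines lay within or next to the range of the naive sets. The naive sets themselves differed by 0.81 ± 0.11. Over all lines the difference from naive was -0.38 ± 0.35, and it was 0.027 without naive S. By resistance it was -1.09 ± 0.43 for low imatinib and -0.25 ± 0.43 for nilotinib. In the high-imatinib lines it was 0.20 ± 0.43, which turned to -0.14 with quantile normalization and to -0.054 with the technical axis taken out.

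DDIT4, on chromosome 10, had lower means than both naive sets in all lines except high-imatinib line 1. It stood at 8.18 ± 0.19 and 7.17 ± 0.03 in low-imatinib lines 1 and 2, 9.63 ± 0.06 and 8.89 ± 0.11 in high-imatinib lines 1 and 2, and 9.07 ± 0.15 and 8.39 ± 0.23 in nilotinib lines 1 and 2, against 9.49 ± 0.23 and 9.39 ± 0.31 in naive S and K. Low-imatinib line 2 was the lowest set, at -2.27 from the naive mean (4.83-fold lower), and all 4 of its arrays lay below every other array. By resistance the difference from naive was -1.77 ± 0.40 for low imatinib, -0.18 ± 0.40 for high imatinib and -0.72 ± 0.40 for nilotinib, and over all lines it was -0.89 ± 0.33 (1.85-fold lower). With the technical axis taken out the nilotinib value was -1.23. DDIT4L, the paralog of DDIT4 on chromosome 4, read between 5.27 and 5.59 in every set, and the arrays of each set overlapped with those of the next set in the order of its means.

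**Figure D1:**
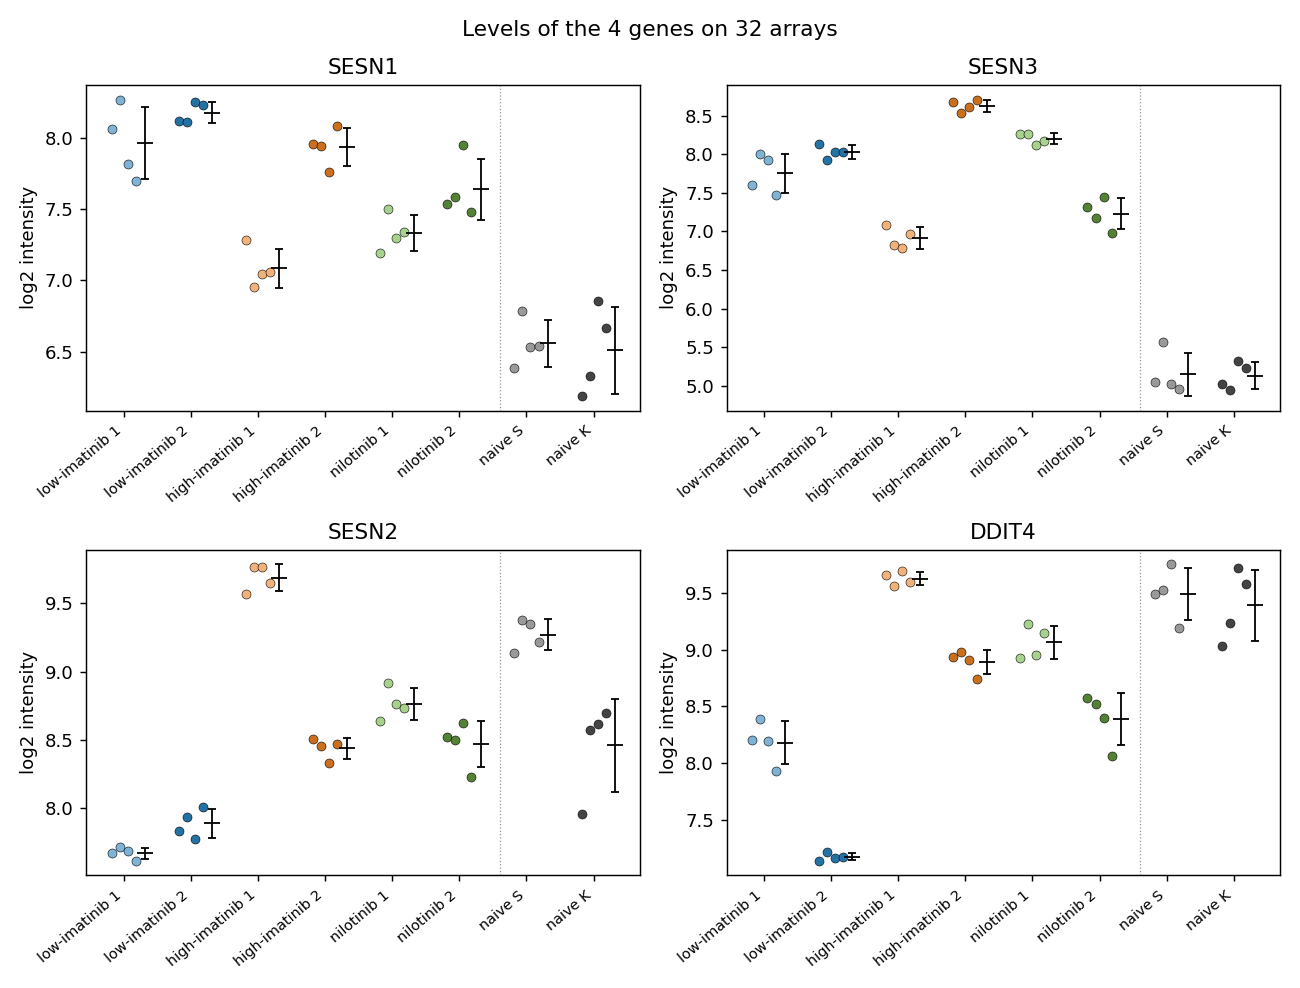
Log2 intensity of SESN1, SESN3, SESN2 and DDIT4 on each of the 32 arrays, with the 6 resistant lines left of the dotted line and the naive sets right of it. Points are technical arrays, and the bar beside them gives the mean and SD of 4 arrays; for SESN3 the lowest array of a resistant line (6.78) lies above the highest naive array (5.57), and for SESN2 and DDIT4 high-imatinib line 1 is the highest set.

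All 6 lines lay above both naive sets for 2 of the 4 genes, SESN1 and SESN3, as did 17.0% of all genes, and below both for 0 of the 4, as did 15.9% of all genes. Over the 6 resistant lines, which leave out the contrast the genes were selected on, SESN2 and DDIT4 had a Pearson r of 0.84, and SESN1 had -0.91 with SESN2 and -0.86 with DDIT4. SESN1 and SESN3 had an r of 0.55 over these lines, against 0.89 over all 8 sets. They shared high-imatinib line 1 as the lowest resistant line but not the order of the others. All points share the same RNA sources, so the correlations only describe them. In the order of SESN3, high-imatinib line 2 came first with arrays clear of nilotinib line 1, which overlapped with low-imatinib line 2. Low-imatinib line 1 was clear of nilotinib line 2, and that line overlapped with high-imatinib line 1. In the order of SESN1, neighbouring resistant lines overlapped throughout. In the order of SESN2, high-imatinib line 1, naive S and nilotinib lines 1 and 2 were each clear of the next, whereas nilotinib line 2, naive K and high-imatinib line 2 overlapped. For DDIT4, the 5 highest sets formed an overlapping chain through high-imatinib line 1, naive S, naive K, nilotinib line 1 and high-imatinib line 2.

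**Figure D2:**
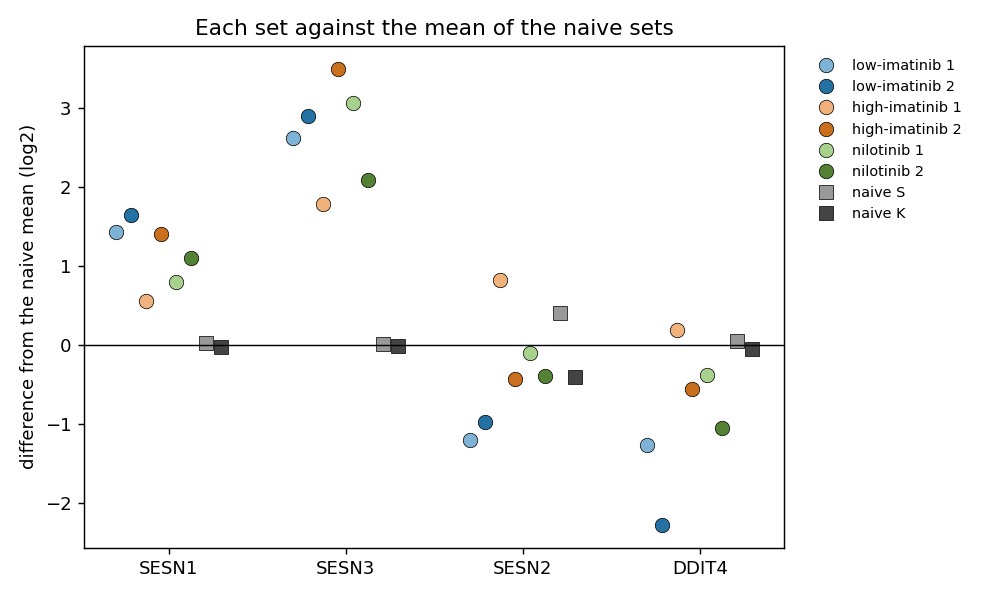
Difference of each set mean from the mean of the naive sets (log2), by gene, for the 6 resistant lines (circles) and the naive sets (squares). SESN1 and SESN3 lie above 0 in all 6 lines, from 0.55 and from 1.78 upward, whereas SESN2 and DDIT4 range from -1.20 to 0.82 and from -2.27 to 0.19.

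The promoter windows of the 4 genes are shown because SESN1 and SESN3, unlike SESN2 and DDIT4, lay above naive cells in all resistant lines. They come from RefSeq (GRCh38.p14) and reach 250 bases upstream of the start and 50 bases downstream, read 5′ to 3′ on the gene's strand; all 4 genes matched. Capitals mark matches, on either strand, to 6 motifs: the forkhead motifs TGTTTAC and TGTTTGC bound by FOXO factors, the E-box CACGTG, the cores ACGTG and GCGTG of hypoxia response elements, and the core TGATGNAA of the C/EBP-ATF response element of ATF4. An E-box always holds the core ACGTG. SESN1 has 3 windows, of which the 1 with a match is printed.
SESN3 (chr11:95232426-95232725, minus strand): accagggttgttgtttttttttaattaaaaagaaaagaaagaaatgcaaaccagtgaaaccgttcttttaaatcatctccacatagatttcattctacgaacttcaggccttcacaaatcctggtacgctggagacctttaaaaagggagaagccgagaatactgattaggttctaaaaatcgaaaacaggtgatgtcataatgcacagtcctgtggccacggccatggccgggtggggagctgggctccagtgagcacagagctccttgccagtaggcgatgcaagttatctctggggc
SESN1 (chr6:109009503-109009802, minus strand): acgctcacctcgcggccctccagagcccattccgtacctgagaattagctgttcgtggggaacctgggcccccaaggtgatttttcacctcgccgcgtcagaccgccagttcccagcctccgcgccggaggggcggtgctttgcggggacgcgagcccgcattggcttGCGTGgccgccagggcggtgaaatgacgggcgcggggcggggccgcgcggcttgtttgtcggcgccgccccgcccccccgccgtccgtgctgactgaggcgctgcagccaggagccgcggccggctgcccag
SESN2 (chr1:28259268-28259567, plus strand): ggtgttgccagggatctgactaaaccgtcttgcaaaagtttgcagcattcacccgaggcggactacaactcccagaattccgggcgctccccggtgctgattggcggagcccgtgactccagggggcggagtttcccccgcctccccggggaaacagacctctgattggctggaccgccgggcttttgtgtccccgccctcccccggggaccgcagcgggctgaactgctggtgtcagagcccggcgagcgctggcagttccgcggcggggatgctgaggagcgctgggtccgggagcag
DDIT4 (chr10:72273674-72273973, plus strand): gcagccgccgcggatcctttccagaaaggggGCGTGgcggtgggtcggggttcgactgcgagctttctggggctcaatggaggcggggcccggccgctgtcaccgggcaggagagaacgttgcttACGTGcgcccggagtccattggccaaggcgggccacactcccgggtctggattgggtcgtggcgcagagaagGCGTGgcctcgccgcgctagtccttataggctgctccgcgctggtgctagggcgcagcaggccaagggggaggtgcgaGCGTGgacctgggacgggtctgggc

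The DDIT4 window held the core ACGTG at position -125 from the start, a match found in 21.4% of 35116 windows of the same length. It also held GCGTG at positions -219, -53 and 25, a core found at least once in 36.5% of windows. SESN1 held GCGTG at position -82 in the printed window. The windows of SESN2 and SESN3 held none of the 6 motifs, and none of the windows of the 4 genes held a forkhead motif (3.42% and 3.89% of windows), an E-box (7.26%) or the ATF4 core (3.62%). The SESN3 window had a GC content of 45.0%, against 67.0% for SESN2, 69.7% for DDIT4 and a median of 58.7% over all windows. The printed SESN1 window had 72.3%, and the other windows of SESN1 had 75.0% and 58.0%. A match is not evidence of binding, and the letters outside these windows were not searched.

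The resistances were compared with each other to ask whether the drug or its dose went with a level of the 4 genes. DDIT4 averaged 9.26 ± 0.52 in the high-imatinib lines and 7.68 ± 0.71 in the low-imatinib lines (SD, n = 2 lines each), a difference of 1.59 ± 0.40 (95% interval 0.64 to 2.53). SESN2 averaged 9.06 ± 0.88 in the high-imatinib lines and 7.78 ± 0.15 in the low-imatinib lines, a difference of 1.29 ± 0.43 (0.28 to 2.30). Neither passed in limma after Benjamini-Hochberg adjustment over all genes (adjusted p = 0.934 for both; unadjusted p = 0.00537 and 0.0196). In this comparison 0 of 14884 genes passed (0% called), and 4.85% had an unadjusted p under 0.05. A random-block fit uses a single set correlation for all genes (0.44), so technical arrays count in part as replicates. For a gene whose lines differ more than that correlation allows, the p-values of that fit can be too small. With all 32 arrays and the set as a random block, limma gave an adjusted p = 2.16e-04 for DDIT4 and 0.00181 for SESN2; over all alternatives these reached 1.00 for both. Without high-imatinib line 2 the SESN2 difference was 1.91 (adjusted p = 0.0490), with a single line in that group that was assumed to vary like the other groups, and without line 1 it was 0.66. DDIT4 ran from 1.08 without low-imatinib line 2 to 2.09 without low-imatinib line 1.

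Nilotinib lines had DDIT4 at 8.73 ± 0.48, 1.05 ± 0.40 above the low-imatinib lines (interval 0.11 to 1.99, adjusted p = 0.694), and SESN2 at 8.62 ± 0.21, 0.84 ± 0.43 above them (interval -0.17 to 1.85, adjusted p = 0.775). The DDIT4 difference was 0.55 without low-imatinib line 2 and 1.56 without low-imatinib line 1. The random-block fit called both (adjusted p = 0.00821 and 0.0388; up to 0.991 for both over all alternatives). Against the high-imatinib lines, the nilotinib lines differed by -0.53 ± 0.40 in DDIT4 (interval -1.48 to 0.41) and by -0.45 ± 0.43 in SESN2 (interval -1.46 to 0.56), with adjusted p = 0.757 and 0.780. With 1 line left out these ran from -0.90 (without high-imatinib line 2) to -0.16 (without high-imatinib line 1) for DDIT4, and from -1.07 to 0.18 for SESN2 without the same lines. In both comparisons with nilotinib 0% of genes were called, with an unadjusted p under 0.05 in 6.91% of genes against the low-imatinib lines and 6.34% against the high-imatinib lines.

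For SESN3 the resistances were close in mean and wide in interval: -0.12 for high against low imatinib (interval -1.41 to 1.17), -0.18 for nilotinib against low imatinib (-1.47 to 1.11) and -0.06 for nilotinib against high imatinib (-1.35 to 1.23). These intervals leave room for differences of more than 2-fold either way. Leaving out high-imatinib line 1 turned the first to 0.74, and leaving out line 2 gave -0.98. SESN1 was lower by 0.56 in the high-imatinib lines (interval -1.21 to 0.09) and by 0.58 in the nilotinib lines (interval -1.23 to 0.07) than in the low-imatinib lines, with adjusted p = 0.934 and 0.774 in limma. The difference between high and low imatinib became -0.13 when high-imatinib line 1 was left out and -0.99 when line 2 was. The nilotinib and high-imatinib means of SESN1 differed by -0.02 (interval -0.67 to 0.62).

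Lines of the same resistance were compared over arrays in limma, which sets a difference against technical spread only. High-imatinib line 1 differed from line 2 in all 4 genes. SESN2 was 1.25 ± 0.11 higher (adjusted p = 8.15e-11) and DDIT4 0.74 ± 0.13 higher (adjusted p = 2.16e-05), while SESN3 fell by 1.71 ± 0.13 (adjusted p = 3.29e-13) and SESN1 fell by 0.85 ± 0.13 (adjusted p = 2.71e-06), line 1 minus line 2. In that comparison 33.0% of all genes were called. DDIT4 was also higher in line 1 than in line 2 of the low-imatinib lines (1.01 ± 0.13, adjusted p = 5.49e-07, 18.7% of genes called) and of the nilotinib lines (0.68 ± 0.13, adjusted p = 1.04e-04, 27.6% of genes called).

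SESN3 was 0.97 ± 0.13 higher in nilotinib line 1 than in line 2 (adjusted p = 1.68e-07), the opposite direction to the high-imatinib pair. SESN1 stood at -0.31 ± 0.13 (adjusted p = 0.0834) and SESN2 at 0.29 ± 0.11 (adjusted p = 0.0549) between the nilotinib lines and did not pass. None of the sestrins passed between the low-imatinib lines (adjusted p from 0.127 to 0.286). Between naive S and K, SESN2 was 0.81 ± 0.11 higher in S (adjusted p = 2.64e-05, 12.4% of genes called), and the other 3 genes did not pass (adjusted p from 0.659 to 0.929, differences from 0.02 to 0.10).

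Genes around the sestrins and DDIT4 were taken from 13 lists of 174 genes, of which 108 were measured. All 6 resistant lines against naive cells called 6 of the 108 higher and 2 lower in limma (7.41%), where 3.21% of all genes were called higher and 0.504% lower (3.72% together, adjusted p under 0.05 over all genes). With quantile normalization the calls over all genes split into 179 higher and 183 lower, where the deposited values gave 478 and 75. All 8 calls were lost once the technical axis was removed, in a test of every feature on the array, and without naive S, naive K, low-imatinib line 1 or low-imatinib line 2. Without nilotinib line 1, 2 of the 108 were called, and without high-imatinib line 1, 23 were. The median difference over the 108 genes was 0.19, against -0.03 over all genes and 0.20 over the 8930 genes left without the dimmest 40%. An unadjusted p under 0.05 was found for 29.8% of all genes in this comparison.

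Of the mTORC1 effectors, 2 of 14 measured genes rose and 0 fell (list median 0.11), where 3.21% of all genes were called higher. At an unadjusted p under 0.05 there were 3 of 14, against 29.8% of all genes. Both genes that rose encode repressors of translation that mTORC1 signalling inactivates. EIF4EBP2, a protein that sequesters the cap-binding factor eIF4E until mTORC1 phosphorylates it, rose by 1.25 ± 0.13 (2.38-fold, adjusted p = 0.0313). Its means ran from 10.0 to 10.4 in the 6 lines, against 9.05 and 8.91 in naive S and K. PDCD4, an inhibitor of the helicase eIF4A that is degraded after phosphorylation by S6 kinase, rose by 1.19 ± 0.20 (adjusted p = 0.0375), with 9.27 to 9.87 in the lines, against 8.51 and 8.14 in naive S and K. The sister repressor EIF4EBP1 stood at -0.32 ± 0.20 (adjusted p = 0.297).

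Among GATOR1, GATOR2 and KICSTOR, the complexes between the sestrins and the Rag GTPases, 1 of 9 measured genes rose and 0 fell (median 0.36). At an unadjusted p under 0.05 there were 5 of 9, against 29.8% of all genes. KICS2, a subunit of the KICSTOR scaffold that holds GATOR1 at the lysosome, rose by 0.82 ± 0.12 (adjusted p = 0.0348), with all 6 lines above both naive sets. No gene passed among the 5 measured mTORC1 and mTORC2 subunits (median 0.39), where AKT1S1, the mTORC1 inhibitor also called PRAS40, stood at 1.00 ± 0.21 (adjusted p = 0.0520) and MAPKAP1, a subunit of mTORC2, at 0.61 ± 0.14 (adjusted p = 0.0578). None passed among 11 genes of the Rag GTPases, Ragulator and other amino acid sensors (median 0.11), where FNIP1, a partner of folliculin, stood at 0.59 ± 0.15 and CASTOR1, the arginine sensor, at -0.21 ± 0.10.

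The TSC complex and RHEB, through which DDIT4 acts, had 0 of 4 measured genes past the threshold (median 0.21). TSC1 stood at 0.35 ± 0.16 and TSC2 at 0.26 ± 0.11, and with quantile normalization both turned to just below 0 (-0.023 and -0.028); with the technical axis taken out TSC1 was also at -0.029. Of AMPK and its activators 0 of 4 passed (median 0.25), with STRADA, the pseudokinase partner of LKB1, at 1.28 ± 0.30 (adjusted p = 0.0616) and STK11, which encodes LKB1, at 0.47 ± 0.22. Of PI3K and AKT genes 0 of 6 passed (median 0.28), with AKT2 at 0.48 ± 0.15 and the kinase PDPK1 at 0.42 ± 0.15. At an unadjusted p under 0.05 there were 3 of 5 mTORC1 and mTORC2 subunits, 1 of 11 Rag and sensor genes, and 1 of 4, 1 of 4 and 2 of 6 genes in the TSC, AMPK and PI3K lists, where the share over all genes was 29.8%.

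**Figure D3:**
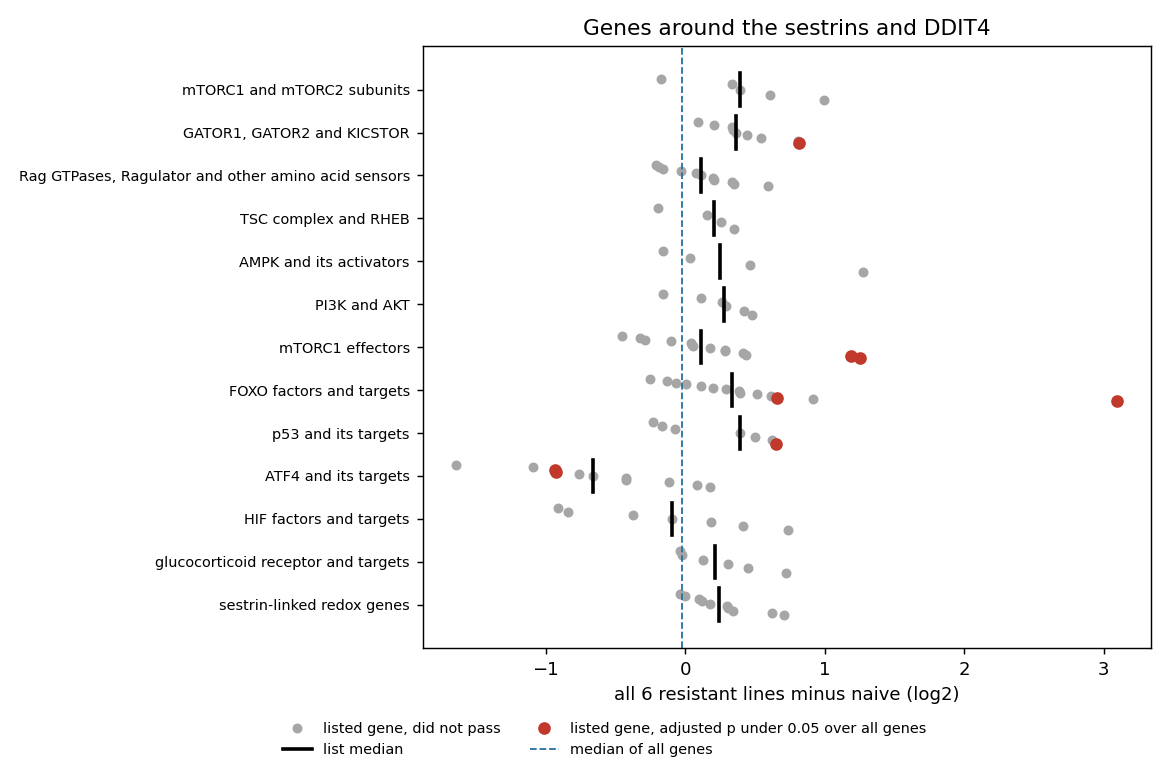
Difference of all 6 resistant lines from naive cells (log2) for the 108 measured genes of 13 lists, with 1 row per list; red points passed an adjusted p of 0.05 over all genes, black bars are list medians and the dashed line is the median of all genes (-0.03). The ATF4 list has the lowest median (-0.66) and holds the 2 red points below 0.

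FOXO factors and targets had 2 of 14 measured genes higher and 0 lower (median 0.34): TXNIP, whose product slows the uptake of glucose, was 3.10 ± 0.51 higher (adjusted p = 0.0370; 2.19 as the mean of its features, which did not pass), and RBL2, a pocket protein that holds cells out of the cycle, rose by 0.66 ± 0.13 (adjusted p = 0.0473). FOXO1 stood at 0.39 ± 0.14, FOXO3 at 0.29 ± 0.10 and FOXO4 at 0.61 ± 0.25, none past the threshold. Of p53 and its targets 1 of 7 measured genes rose, BAX, an executor of apoptosis, by 0.65 ± 0.13 (adjusted p = 0.0454), and the list median was 0.40. At an unadjusted p under 0.05 there were 6 of 14 FOXO and 3 of 7 p53 list genes, against 29.8% of all genes.

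ATF4 and its targets had 2 of 11 measured genes lower and 0 higher, with a median of -0.66, where 0.504% of all genes were called lower. At an unadjusted p under 0.05 there were 5 of 11, against 29.8% of all genes. ATF5, a transcription factor, fell by 0.94 ± 0.14 (adjusted p = 0.0348) and STC2, a secreted glycoprotein, fell by 0.93 ± 0.17 (adjusted p = 0.0433). ATF4 RNA itself stood at -0.12 ± 0.10 (adjusted p = 0.431). By line, the list median was -0.95 and -0.97 in low-imatinib lines 1 and 2, -0.12 and -0.50 in high-imatinib lines 1 and 2, and -0.44 and -0.10 in the nilotinib lines. The same lines had SESN2 at -1.20 and -0.98, 0.82 and -0.43, and -0.10 and -0.40 from the naive mean. DDIT4 lay at -1.26 and -2.27, 0.19 and -0.55, and -0.38 and -1.05. The low-imatinib lines were thus lowest for the list median, for SESN2 and for DDIT4.

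**Figure D4:**
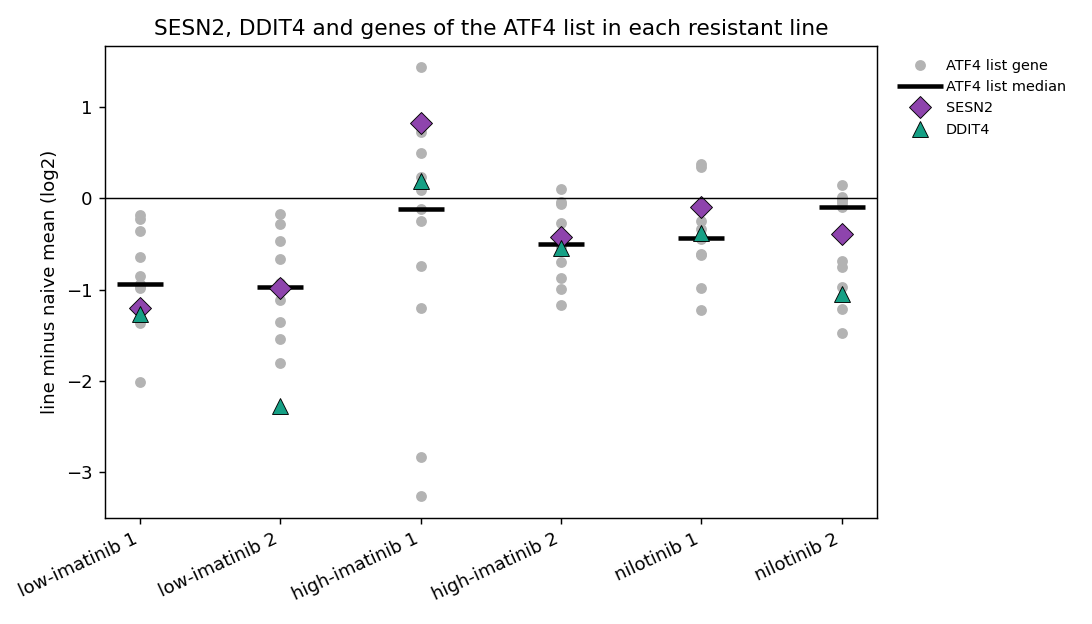
Difference of each resistant line from the naive mean (log2) for SESN2 (diamonds), DDIT4 (triangles), the 11 measured genes of the ATF4 list (grey) and their median (black bars). The list median is -0.95 and -0.97 in the low-imatinib lines, where SESN2 and DDIT4 are also lowest, and the grey points spread most widely in high-imatinib line 1.

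Of the HIF factors and targets, 0 of 7 measured genes passed (median -0.10). EPAS1, which encodes HIF-2α, stood at -0.91 ± 0.19 (adjusted p = 0.0507) and the vasoactive peptide gene ADM at -0.37 ± 0.10 (adjusted p = 0.0786). The glucocorticoid list had 0 of 6 past the threshold (median 0.22), with the transcription factor KLF9 at 0.72 ± 0.16 (adjusted p = 0.0565) and the chaperone partner FKBP5 at 0.45 ± 0.11. Redox genes linked to sestrins had 0 of 10 past it (median 0.24), with KEAP1, the inhibitor of NRF2, at 0.71 ± 0.16 (adjusted p = 0.0547) and the peroxiredoxin PRDX2 at 0.62 ± 0.15. At an unadjusted p under 0.05 there were 3 of 7, 2 of 6 and 3 of 10 genes of these lists, against 29.8% of all genes.

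The genes most like each member were taken by Pearson r over the 8 set means among 3499 genes whose means spanned at least 1 log2 unit. With 8 points, and with the same RNA behind all genes, a high r arises readily among so many genes. The 8 sets include the gap between resistant and naive cells on which the members were selected. A similar order of sets follows from the choice by r and is no separate result. SESN3 was followed most closely by OSBPL6, an oxysterol-binding protein relative (r = 0.99), then by ANKRD12, the nuclear receptor coactivator gene NCOA1 and APEX2, an apurinic endonuclease gene (r from 0.98 to 0.99). OSBPL6 read 8.78 and 9.34 in low-imatinib lines 1 and 2, 7.78 and 9.81 in high-imatinib lines 1 and 2, and 9.27 and 8.20 in nilotinib lines 1 and 2, against 6.32 and 6.52 in naive S and K. Its lowest resistant level was in high-imatinib line 1 and its highest in line 2, as for SESN3, to which it was matched by r. SESN1 was followed by the actin regulator CFL2, SH3GL1, the splicing factor SRSF6 and the Wnt receptor FZD5 (r from 0.98 to 0.99).

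SESN2 was followed by SEL1L, a subunit of the machinery that removes misfolded proteins from the endoplasmic reticulum (r = 0.96), GFPT1, the first enzyme of hexosamine synthesis (0.96), RTN4, a protein that shapes the endoplasmic reticulum (0.94), and NCOA7 (0.94). SEL1L read 7.92 and 8.07 in low-imatinib lines 1 and 2, 9.74 and 8.55 in high-imatinib lines 1 and 2, and 8.83 and 8.73 in nilotinib lines 1 and 2, against 8.95 and 8.74 in naive S and K. High-imatinib line 1 was its highest set, as for SESN2, to which it was matched by r. DDIT4 was followed less closely, by WARS1, the tryptophanyl-tRNA synthetase (0.90), VEGFA, the angiogenic growth factor (0.89), TRIB3, a pseudokinase induced by ATF4 (0.88), and RNF213 (0.88). TRIB3 read 7.40 and 7.04 in low-imatinib lines 1 and 2, 9.06 and 7.40 in high-imatinib lines 1 and 2, and 8.14 and 7.81 in nilotinib lines 1 and 2, against 8.75 and 8.39 in naive S and K.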

How the data were processed

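The deposited values are summarised array intensities on what reads as a log2 scale (1.24 to 14.2), made by the authors with Transcriptome Analysis Console 4.0 per the submitters' processing notes. The normalization, the background correction and the base of the logarithm are not given in the sources used here. Medians of the arrays ran from 5.85 to 6.11. Of 53617 features, 16098 carried 1 gene symbol, updated by gene identifier to GRCh38.p14, and 37519 were unnamed here. Where a gene had several features (779 genes), the one with the highest mean stood for it. The 4 members had 1 feature each.

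Each set entered as the mean of its 4 technical arrays. A model with 1 mean per group was fitted to these 8 values in limma 3.58.1 (R 4.3.3; 4 residual degrees of freedom). Lines of the same group were compared on the 32 arrays (24 residual degrees of freedom). P-values were adjusted by Benjamini-Hochberg over all genes, threshold 0.05. In the fit to set means, p-values set a difference against the spread between sets of the same group, pooled over all groups. Nothing says that naive S and K were separate cultures, so their part of that spread may not be one between cultures. The fit was also run on simulated data, drawn independently for each gene and set and without a technical axis. That run therefore cannot show whether the calls in these data hold. Members, lists and tests were chosen with earlier results of these data known, and the lists are therefore not independent evidence. Named from each list were the genes that passed or, where none did, the 2 with the smallest p; others named were chosen after their values were seen. Alternatives were quantile normalization, a common median, removal of the technical axis (the first principal component of the deviations of arrays from their set means), the mean of a gene's features, leaving out the dimmest 40% of genes, every feature, the set as a random block, only the groups compared, a replicate block and leaving out each set or array.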

Additional observations from a re-analysis of the deposited data

Results flagged for a closer look

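SESN3 on naive S array 2 read 5.57, far above the other 3 arrays of that set (4.96, 5.03 and 5.05). The gap was larger than Dixon's 95% critical value for 4 samples allows. This was 1 of 32 groups of 4 arrays looked at (4 genes in 8 sets), and chance flags about 1 in 20. The array lay below every array of a resistant line, and without it SESN3 in naive S minus naive K was -0.12 in place of 0.02.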

How the results depend on the processing

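The resistant-minus-naive differences of SESN3 and SESN1 kept their direction under every alternative run, as did those of DDIT4 apart from the high-imatinib lines; the cause of the changes below was not tested. With the technical axis taken out, SESN1 was 0.71 over all lines, 1.12 in the low-imatinib, 0.64 in the high-imatinib and 0.38 in the nilotinib lines, DDIT4 was -1.23 in the nilotinib lines, and SESN2 was -0.054 in the high-imatinib lines (-0.14 with quantile normalization). Leaving out 1 set at a time gave, for SESN1, 1.01 to 1.30 over all lines and 0.55 to 1.40 in high-imatinib lines 1 and 2, and for SESN3, 1.78 to 3.49 in the high-imatinib lines. For SESN2 it gave -0.79 to 0.027 over all lines, -0.43 to 0.82 in the high-imatinib and -0.66 to 0.16 in the nilotinib lines, and for DDIT4 -2.27 to -1.26 in the low-imatinib and -0.55 to 0.19 in the high-imatinib lines.

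Between resistances, the random block called DDIT4 (1.59 for high against low imatinib, 1.05 for nilotinib against low imatinib) and SESN2 (1.29 and 0.84). That fit counts technical arrays in part as replicates. Leaving out 1 set gave, for DDIT4, 1.08 to 2.09 (high against low imatinib), 0.55 to 1.56 (nilotinib against low imatinib) and -0.90 to -0.16 (nilotinib against high imatinib), and for SESN2 0.66 to 1.91 in the first and -1.07 to 0.18 in the third. For SESN3 it gave -0.98 to 0.74 (high against low imatinib), -0.66 to 0.31 (nilotinib against low imatinib) and -0.91 to 0.80 (nilotinib against high imatinib), and for SESN1 -0.99 to -0.13 in the first and -0.45 to 0.40 in the third. Between nilotinib lines, SESN1 passed with quantile normalization (-0.37) and without the technical axis (-0.43), and SESN2 with a common median (0.29), with the dimmest 40% left out (0.29) and without nilotinib line 1 array 1 or line 2 array 3 (0.33 and 0.35); over all single arrays left out it ran from 0.21 to 0.35. SESN3 passed between low-imatinib lines without the technical axis (-0.28). Between naive sets, SESN1 and SESN3 were then at -0.013 and -0.027; leaving out 1 array gave -0.057 to 0.16 for SESN1, -0.12 to 0.087 for SESN3 and -0.021 to 0.21 for DDIT4. TSC1 turned to -0.023 with quantile normalization and -0.029 without the technical axis, and TSC2 to -0.028 with quantile normalization.

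The 553 genes called over all lines became 16 with every array feature, 362 with quantile normalization, 3660 with the random block, 12 without the technical axis and 0 to 1742 with 1 set left out (0 without naive S or either low-imatinib line, 2 without naive K, 130 without nilotinib line 1, 923 without high-imatinib line 2, 1742 without high-imatinib line 1). The 8 list genes became 13 with the dimmest 40% left out, 0 with every feature or without the technical axis, 45 with the random block and 0 to 23 with 1 set left out. Between resistances, 0 genes became 413 (high against low imatinib), 550 (nilotinib against low imatinib) and 201 (nilotinib against high imatinib) with the random block, 2 and 1 with every feature in the nilotinib comparisons, and 0 to 270, 0 to 28 and 0 to 35 with 1 set left out. Within groups, every feature, which tests more features, gave 6492, 10916, 8815 and 5179 calls (low imatinib, high imatinib, nilotinib, naive). Naive S against K gave 2990 with quantile normalization, 2871 without the technical axis, and 1126 to 2127 with 1 array left out (1126 without naive S array 2).

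With the replicate block over the 6 lines, DDIT4 for high against low imatinib remained 1.59 (adjusted p = 0.932), 0 genes were called in each comparison between resistances, and no call on the 4 genes changed. Deviations of same-numbered lines correlated at 0.14, 0.19 and -0.20. Whether same-numbered lines share an origin or a batch was not tested. No level of the 4 genes moved by more than its SD when the median of 4 arrays replaced the mean. Without background values, dim features, such as that of DDIT4L and that of SESN3 in naive cells, have unknown precision.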

Other observations

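Genes of the ATF4 list split within high-imatinib line 1, as seen after the values were known and not tested. DDIT3, the stress transcription factor CHOP, read 8.15 there, against 6.08 to 7.06 in the other 5 lines and 6.55 and 6.89 in naive S and K. Of the redox list, SQSTM1, an autophagy receptor, read 8.88 there, against 7.51 to 8.27 in the other lines and 7.93 and 8.28 in the naive sets. PSAT1, an enzyme of serine synthesis, read 7.59 there, against 8.42 to 10.4 in the other lines and 10.7 and 10.2 in naive S and K. CTH, the cystathionine gamma-lyase of cysteine synthesis, read 5.55 there, against 7.01 to 7.83 in the other lines and 9.01 and 8.61 in the naive sets. In the line where SESN2 and DDIT4 were highest, DDIT3 and TRIB3 were thus also highest, and PSAT1 and CTH lowest. PHGDH, also an enzyme of serine synthesis, read 8.98 there, against 8.97 and 8.53 in naive S and K. The asparagine synthetase ASNS read 9.40 there, against 9.58 and 9.44 in naive S and K. Genes of amino acid synthesis on the list thus did not all fall in this line.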
